A study of Homo sapiens with 6 samples.

Results

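The transcript levels of 8 liver-enriched transcription factors were examined in HepG2 cells incubated with glycine. The members were chosen by name, with earlier results of these data known, as factors that set liver gene expression. They were HNF4A, FOXA1, FOXA2, FOXA3, CEBPA, CEBPB, ONECUT1 and PROX1, or 8 of the 57500 genes counted. HepG2 is an established human liver cancer cell line, labelled here as wild type and as hepatocarcinoma cells. Of its 6 libraries, 3 came from cells given 10 mM glycine for 24 h and 3 from cells given vehicle for the same time. Both groups were the same line, and the study's culture medium contains glycine before any is added, so the vehicle group was not free of glycine. RNA was sequenced from bulk cells, so a lower value cannot tell less RNA per cell from fewer cells carrying it. The libraries held 31795489 to 58815986 counts, and 15492 genes passed the filter on low counts, all 8 factors included. Values in CPM are a gene's counts per 1000000 of the library size. That size was taken over the genes that passed the filter and adjusted by TMM, a scaling for library composition. On total counts without TMM, 3 counts, taken as the limit of detection for counting error alone, came to between 0.0510 and 0.0944 CPM.

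Hepatocytes keep their identity through a small circuit of DNA-binding proteins that act on each other's genes as well as on those of the secreted and metabolic proteins of the liver. HNF4A is a nuclear receptor that holds much of the hepatocyte programme in place. The FOXA proteins are forkhead factors that can open closed chromatin, and the CEBP proteins are leucine zipper factors that act in energy metabolism and the acute phase response. ONECUT1 is a cut-homeodomain factor of liver and bile duct development, and PROX1 is a homeodomain protein that acts in liver growth and as a corepressor of nuclear receptors.

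The proximal promoters of the 3 factors whose libraries did not overlap between the groups, HNF4A, FOXA1 and FOXA3, are shown to place the recognition words of the same circuit in front of its genes. RefSeq (GRCh38.p14) gave 8 promoter sequences for 6 of the 8 factors, and FOXA2 and PROX1 had none in the table. The 250 bases before each start were searched on both strands for 6 words, chosen with these sequences in view. Only the bases outside exons annotated for the same gene are printed, 5′ to 3′ on the gene's strand, with ONECUT and FOXA words in capitals.
HNF4A, upstream start: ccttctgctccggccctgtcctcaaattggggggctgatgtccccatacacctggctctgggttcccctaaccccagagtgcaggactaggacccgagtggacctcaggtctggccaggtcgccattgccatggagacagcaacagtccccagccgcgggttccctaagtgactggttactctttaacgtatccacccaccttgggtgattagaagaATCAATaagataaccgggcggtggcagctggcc
HNF4A, downstream start: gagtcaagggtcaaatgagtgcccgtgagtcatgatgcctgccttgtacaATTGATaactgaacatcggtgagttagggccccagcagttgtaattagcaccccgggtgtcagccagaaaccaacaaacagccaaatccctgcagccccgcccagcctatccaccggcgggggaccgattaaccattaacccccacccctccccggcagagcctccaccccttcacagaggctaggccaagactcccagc
FOXA1: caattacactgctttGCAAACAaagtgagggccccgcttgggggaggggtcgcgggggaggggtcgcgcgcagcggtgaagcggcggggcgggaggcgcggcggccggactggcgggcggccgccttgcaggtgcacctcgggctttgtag
FOXA3: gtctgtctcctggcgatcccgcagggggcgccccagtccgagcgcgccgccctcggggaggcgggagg

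HNF4A is known to be transcribed from alternative starts. Its upstream window lay at chr20:44355449-44355698 on the plus strand, just before the first annotated exon, and its downstream window at chr20:44400989-44401238, between annotated exons of the gene. The ONECUT word ATCAAT was found once in each, as ATCAAT from 33 bases before the upstream start and as its reverse complement ATTGAT from 200 bases before the downstream start. This word was in 5.58% of the 35116 promoters of the table and in 2 of the 8 sequences of the factors. The printed FOXA1 stretch, 151 bases at chr14:37595349-37595499 on the minus strand between annotated exons, held the FOXA word TGTTTGC as its reverse complement GCAAACA, 235 bases before the start, and 3.23% of all promoters held that word. The printed FOXA3 stretch, 68 bases at chr19:45864192-45864259 on the plus strand between annotated exons, held none of the words, while its full window held the TATA word TATAAA 30 bases before the start, as did 10.7% of all promoters. TATAAA was also in the CEBPA window and in 1 of the 2 CEBPB windows. The other FOXA word TGTTTAC (2.98% of promoters), the HNF4 word AAGTCCA (2.82%) and the CEBP word TTGCGCA (1.62%) were in none of the 8 sequences. No matched words overlapped one another, and a match describes letters and not binding.

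With glycine, 1 of the 8 factors passed the test, and it was lower: FOXA3, which fell by 0.33 on the log2 scale. None was called higher by edgeR, DESeq2 or limma. At an unadjusted p under 0.05 edgeR counted 3 of the 8 beside 27.3% of all genes, with 1 higher beside 14.3% and 2 lower beside 13% of all genes. HNF4A was lower and FOXA1 higher in every glycine library than in every vehicle library without passing the test, and the other 5 factors overlapped between the groups. Across all 15492 genes tested, edgeR's quasi-likelihood test called 13.3% at a Benjamini-Hochberg adjusted p under 0.05, with 6.71% higher and 6.54% lower, so 1 of 8 lower stood against a background of 6.54%. The libraries of the groups did not overlap for 3 of the 8 factors and for 31.6% of all genes. The median log2 change was -0.01 over the 8 factors and 0.00 over all genes tested.

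**Figure D1:**
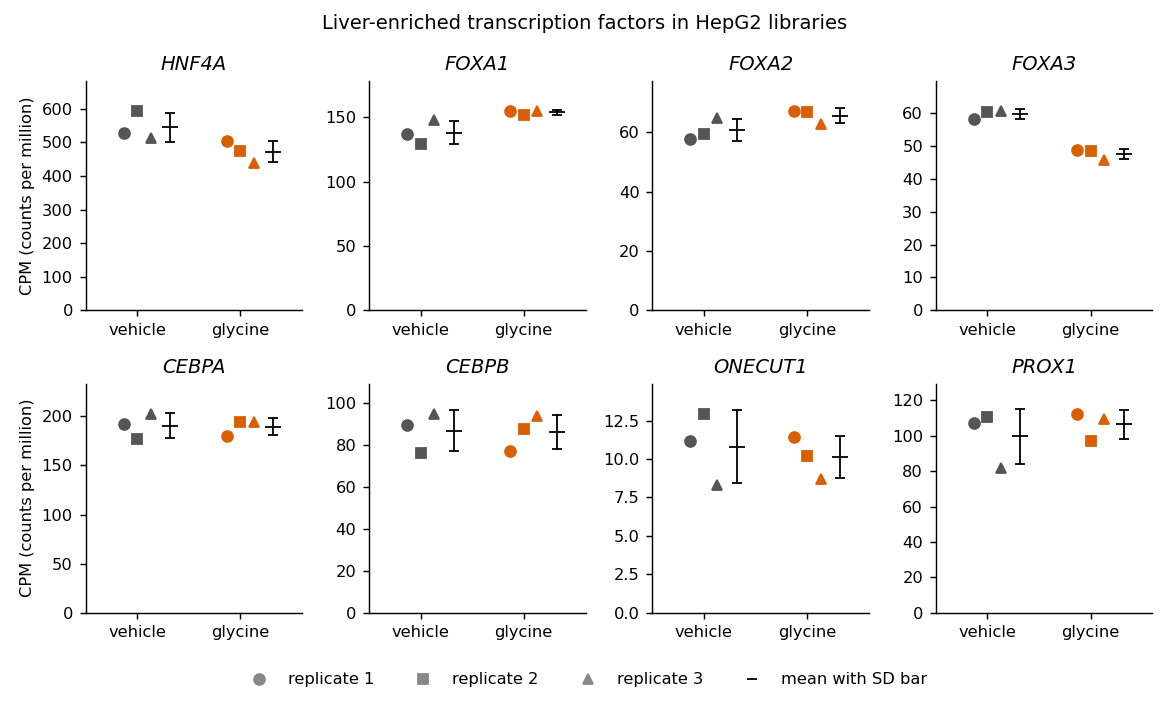
Level of each of the 8 factors in CPM (vertical axes, from 0) in the 3 vehicle libraries (grey) and the 3 glycine libraries (orange), with the marker shape giving the replicate number and the black mark the mean with its SD. The 3 FOXA3 glycine libraries lie at 45.8 to 48.8 CPM, below the vehicle libraries at 58.2 to 60.8 CPM, while the CEBPA, CEBPB, ONECUT1 and PROX1 groups overlap.

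FOXA3 (ENSG00000170608, chr19:45863989-45873797, plus strand) encodes the third forkhead factor of the FOXA family and is known for its action on glucose metabolism genes of the liver. Its level was 58.2, 60.6 and 60.8 CPM in the vehicle libraries and 48.8, 48.4 and 45.8 CPM in the glycine libraries. All 3 glycine libraries were below all 3 vehicle libraries, and the replicates of each group were close together. The group means were 59.9 ± 1.42 and 47.7 ± 1.61 CPM (SD, n = 3 each), and the log2 change was -0.33 ± 0.06 (SE), an expression ratio of 0.797, with an edgeR adjusted p of 0.00371. The coefficient of variation of FOXA3 was 2.37% in vehicle and 3.37% in glycine, the lowest of the 8 factors in vehicle. FOXA3 was 569 of 15492 in the order of p-values. It passed the test under all 14 alternatives, with an adjusted p of at most 0.0230, reached by edgeR without glycine replicate 3.

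FOXA1 (ENSG00000129514, chr14:37589984-37596059, minus strand), the forkhead factor that is also widely used in breast and prostate, stood at 137, 129 and 148 CPM in vehicle and at 155, 152 and 155 CPM in glycine. Every glycine library was above every vehicle library. The log2 change was 0.16 ± 0.06 (SE), with an unadjusted, approximate 95% interval of 0.03 to 0.28, and the edgeR adjusted p was 0.136. FOXA2 (ENSG00000125798, chr20:22581005-22585455, minus strand), which is needed for the formation of the foregut and liver, stood at 57.9, 59.5 and 65.0 CPM in vehicle and at 67.2, 66.8 and 62.9 CPM in glycine. The third vehicle library was above the third glycine library, so the groups overlapped. The FOXA2 log2 change was 0.11 ± 0.07 (SE) with an interval of -0.02 to 0.24 and an edgeR adjusted p of 0.317.

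The 3 FOXA genes were then set against each other within each library, as CPM per kb of annotated exon, since levels of different genes are comparable only per length. Their sum was 83.2, 83.0 and 89.7 CPM per kb in the vehicle libraries and 86.9, 85.8 and 84.0 CPM per kb in the glycine libraries, so the groups overlapped. Its make-up differed. FOXA3 made up 31.9%, 33.3% and 30.9% of the sum in vehicle and 25.6%, 25.7% and 24.9% in glycine, a mean difference of -6.62 percentage points. FOXA1 made up 40.6% ± 1.25 (SD, n = 3) in vehicle and 45.1% ± 1.06 in glycine, and FOXA2 made up 27.4% ± 0.567 and 29.4% ± 0.613. The groups did not overlap for any of the 3 shares, each with an exact two-sided permutation p of 0.1, the smallest that 3 against 3 libraries allow. The 3 shares of a library make up its whole sum, so a lower FOXA3 share leaves a larger part to FOXA1 and FOXA2. The 3 p-values are therefore not separate evidence, and the higher FOXA1 and FOXA2 shares do not show a rise of either gene. FOXA3 was above FOXA2 in each vehicle library, with a log2 ratio of 0.26, 0.27 and 0.15, and below it in each glycine library, at -0.21, -0.22 and -0.21. On CPM without division by length the difference between the groups in this ratio was the same, -0.44 on the log2 scale (exact permutation p = 0.1), but vehicle replicate 3 then already had FOXA3 below FOXA2. The groups' FOXA2 shares came closer on that scale, at 23.5% and 24.6% (exact permutation p = 0.2).

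**Figure D2:**
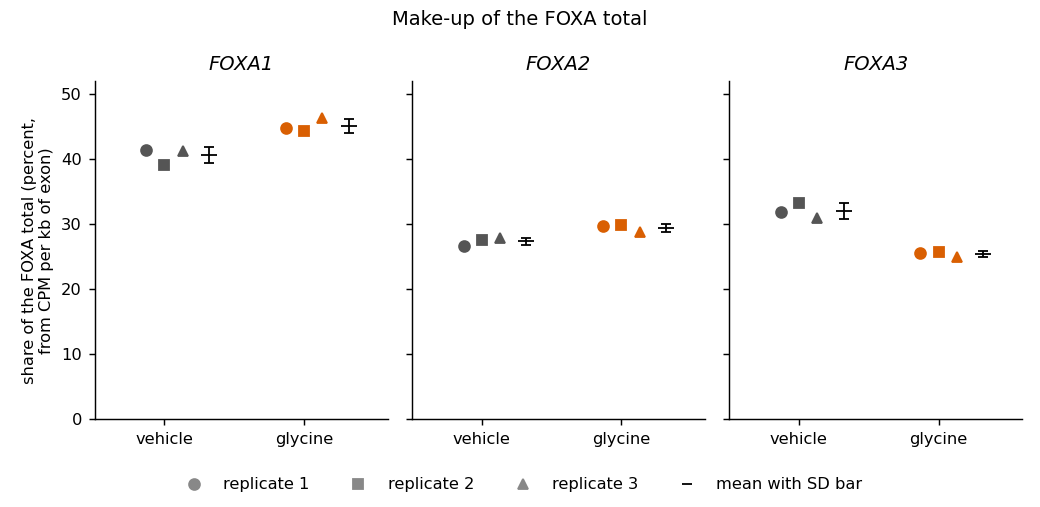
Share of each FOXA gene in the sum of the 3 FOXA genes (vertical axis, percent, from CPM per kb of exon) in each vehicle (grey) and glycine (orange) library, with the mean and its SD in black. The FOXA3 share lies at 30.9% to 33.3% in vehicle and at 24.9% to 25.7% in glycine, and the FOXA1 and FOXA2 shares lie higher in all glycine libraries than in all vehicle libraries.

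HNF4A (ENSG00000101076, chr20:44355700-44434596, plus strand) had the most reads of the 8 factors. It stood at 528, 594 and 513 CPM in vehicle and at 504, 475 and 440.3 CPM in glycine. The groups were next to each other without overlap, with the highest value in vehicle replicate 2. The log2 change was -0.20 ± 0.08 (SE), with an unadjusted, approximate 95% interval of -0.36 to -0.05. The edgeR adjusted p was 0.109. Over the 14 alternatives the adjusted p lay between 0.0607 (DESeq2) and 0.293 (edgeR without glycine replicate 3), so HNF4A passed the test under none of them.

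CEBPA (ENSG00000245848, chr19:33299934-33302564, minus strand), which drives genes of gluconeogenesis and holds back cell division, stood at 192, 177 and 203 CPM in vehicle and at 179.9, 195 and 195 CPM in glycine. CEBPB (ENSG00000172216, chr20:50190734-50192689, plus strand), which takes part in the acute phase response, stood at 89.5, 76.2 and 95.2 CPM in vehicle and at 77.5, 87.9 and 93.8 CPM in glycine. In both genes the groups overlapped almost fully, and vehicle replicate 2 and glycine replicate 1 were the lowest libraries of their groups. The log2 change was -0.01 ± 0.07 (SE) for CEBPA, with an interval of -0.14 to 0.13, and -0.01 ± 0.09 for CEBPB, with an interval of -0.18 to 0.17. Their edgeR adjusted p-values were 0.961 and 0.968. Per kb of exon, the log2 ratio of CEBPA to CEBPB was 0.71 ± 0.07 (SD, n = 3) in vehicle and 0.71 ± 0.08 in glycine (exact two-sided permutation p = 0.9). Of the exon length of CEBPA, 43.4% is overlapped by 2 genes on the other strand that were at 0 counts in all 6 libraries. For CEBPB the overlap is 11.8%, with CEBPB-AS1, which was at 0.571 to 1.31 CPM. The strand setting of the counting was not given in the sources used here, so reads in these stretches may be lost from the counts of the factor or come from the partner.

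ONECUT1 (ENSG00000169856, chr15:52756989-52791078, minus strand) had the fewest reads of the 8, and stood at 11.2, 12.96 and 8.29 CPM in vehicle and 11.5, 10.2 and 8.72 CPM in glycine, from 298 to 595 reads a library. PROX1 (ENSG00000117707, chr1:213983181-214041502, plus strand) stood at 107, 110.4 and 81.7 CPM in vehicle and at 112, 97.0 and 109.7 CPM in glycine. Both genes overlapped between the groups and were lowest in vehicle replicate 3 and highest in vehicle replicate 2 among the vehicle libraries. The log2 change was -0.10 ± 0.14 (SE) for ONECUT1, with an interval of -0.38 to 0.18 and an edgeR adjusted p of 0.711. For PROX1 it was 0.09 ± 0.10, with an interval of -0.10 to 0.29 and an edgeR adjusted p of 0.599. The direction of ONECUT1 turned without vehicle replicate 2 (0.05) and that of PROX1 without vehicle replicate 3 (-0.03). These were the most variable of the factors in vehicle, with coefficients of variation of 21.8% and 15.7%.

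**Figure D3:**
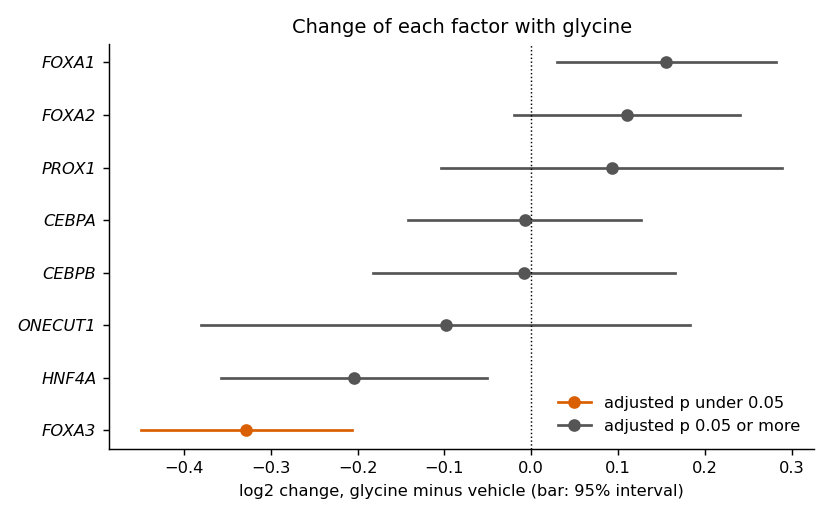
Log2 change of each factor, glycine minus vehicle (horizontal axis), as a point with its unadjusted 95% interval, in orange where the edgeR adjusted p was under 0.05 and in grey otherwise. FOXA3 at -0.33 is the only orange point, with FOXA1 at 0.16 and HNF4A at -0.20 on opposite sides of 0.

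Per kb of exon, the order of the factors in vehicle was HNF4A (74.5 CPM per kb), CEBPA (72.5), CEBPB (44.5), FOXA1 (34.7), FOXA3 (27.3), FOXA2 (23.4), PROX1 (11.2) and ONECUT1 (2.81). HNF4A and CEBPA overlapped between their libraries, and every other pair of neighbours was separate. In glycine the order was CEBPA (72.1 CPM per kb), HNF4A (64.7), CEBPB (44.2), FOXA1 (38.6), FOXA2 (25.2), FOXA3 (21.8), PROX1 (11.9) and ONECUT1 (2.63), again with overlap between CEBPA and HNF4A alone. Thus 2 pairs of neighbours stood in the other order, of which FOXA2 and FOXA3 were separate in both groups. The division uses the length of all annotated exons joined, so a gene with many exons that the cells do not use is set too low by it.

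The paralogs of the factors were counted as well. Of 7 listed, 5 passed the filter, with 0 called by edgeR in either direction, beside 13.3% of all genes. Their median log2 change was -0.05, and 0 were without overlap between groups, beside 31.6% of all genes. At an unadjusted p under 0.05 the edgeR count was also 0, beside 27.3% of all genes. With 5 genes, counts of 0 say little beside these shares. ONECUT2, the related cut-homeodomain gene, was at 33.7 ± 6.72 CPM in vehicle and 32.7 ± 3.19 CPM in glycine (SD, n = 3 each), a log2 change of -0.05. CEBPG, a partner of the other CEBP proteins, was at 55.8 ± 1.04 and 58.9 ± 2.90 CPM, and CEBPD, an acute phase factor, at 20.4 ± 1.98 and 18.9 ± 1.498 CPM. HNF4G reached up to 10.5 CPM and ONECUT3 up to 0.689 CPM, and CEBPE and PROX2 did not pass the filter.

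A wider list of 30 other factors known for their part in liver gene control was also counted. It was written with earlier results of these data known, so its counts are a description and not independent support. Among its genes 10 passed the edgeR test as lower and 1 as higher, beside 6.54% and 6.71% of all genes. Of the 30 log2 changes, 27 were below 0, beside 7625 of 15492 over all genes. Their median was -0.17, beside 0.00 over all genes. The largest fall was that of CREB3L3, a membrane-bound factor of fasting lipid metabolism, from 36.2, 41.2 and 40.0 CPM in vehicle to 23.0, 23.8 and 22.1 CPM in glycine (log2 change -0.77 ± 0.07, SE, edgeR adjusted p 1.43e-05). All glycine libraries of CREB3L3 were well below all vehicle libraries. NR1H4, the bile acid receptor FXR, fell from 41.1, 43.1 and 40.5 CPM to 34.2, 28.96 and 28.997 CPM (-0.44 ± 0.08, edgeR adjusted p 0.00220). GATA4, a zinc finger factor of early liver development, fell from 104.9, 112 and 115 CPM to 90.8, 91.8 and 87.6 CPM (-0.30 ± 0.06, edgeR adjusted p 0.00672). Neither overlapped between the groups.

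TEF, a clock-controlled leucine zipper factor, fell from 14.5 ± 0.802 to 11.2 ± 0.425 CPM (SD, n = 3 each, edgeR adjusted p 0.00927). AHR, the receptor for dioxins and related ligands, was the gene called higher, at 26.5, 21.5 and 24.8 CPM in vehicle and 34.1, 33.2 and 41.6 CPM in glycine, a log2 change of 0.58 ± 0.10 (SE, edgeR adjusted p 0.00171). Other genes overlap 39.2% of its exon length. The other 6 genes called lower, of which 5 are named after their values were seen, were PPARA, NR0B2, RXRA, MLXIPL, ESRRA and NR5A2, with log2 changes of -0.41, -0.42, -0.28, -0.33, -0.22 and -0.70 in that order. PPARA and RXRA are partner nuclear receptors of fatty acid use, NR0B2 (SHP) and NR5A2 act in bile acid control, and MLXIPL (ChREBP) responds to glucose. The calls of ESRRA and NR5A2 held under only 6 and 5 of 14 alternatives, in that order. NR5A2 was low throughout, at 1.68 ± 0.295 CPM in vehicle and 1.01 ± 0.208 CPM in glycine (SD, n = 3 each). The edgeR call of MLXIPL was lost without glycine replicate 2 (adjusted p 0.0642) and that of RXRA without glycine replicate 3 (adjusted p 0.0691).

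Of the 5 genes of this list with the most reads, GATA4 and RXRA were called and the other 3 were not. HLF, a leucine zipper factor, was at 291 ± 11.3 CPM in vehicle and 278 ± 14.5 CPM in glycine, NR2F6 at 211 ± 12.2 and 199.7 ± 7.89 CPM, and TBX3 at 112 ± 9.38 and 110.4 ± 6.46 CPM (SD, n = 3 each). Their log2 changes were -0.06, -0.08 and -0.02.

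**Figure D4:**
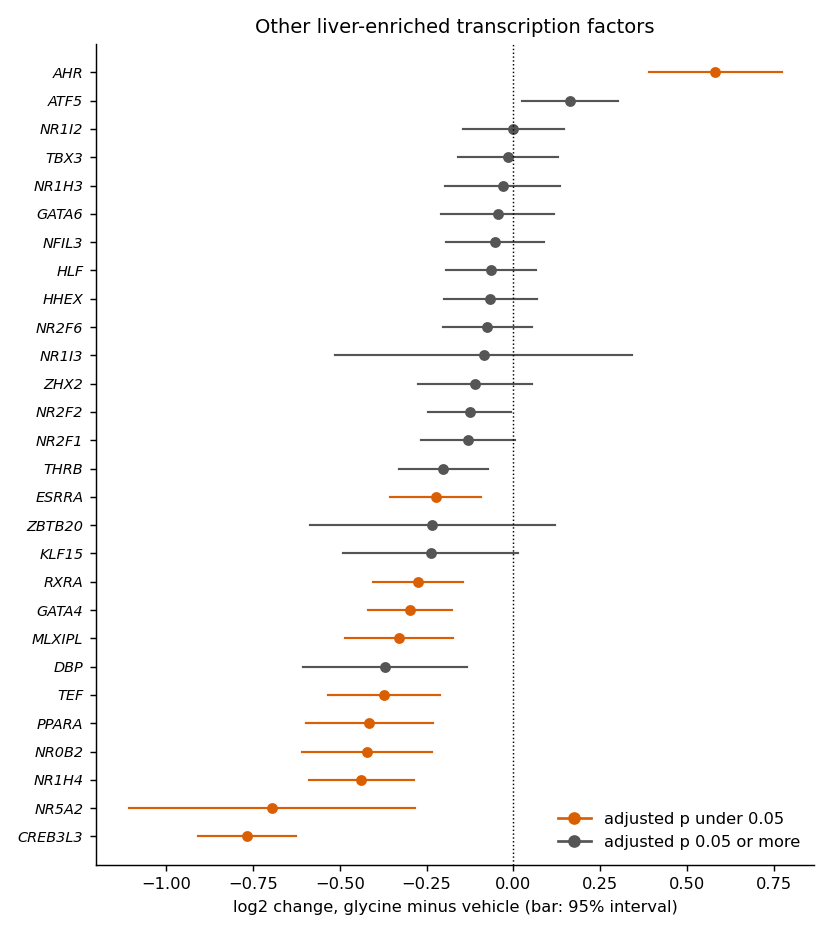
Log2 change, glycine minus vehicle (horizontal axis), of 28 of the 30 other liver-enriched factors as points with unadjusted 95% intervals, in orange where the edgeR adjusted p was under 0.05 and in grey otherwise. The orange points are 10 below 0, led by CREB3L3 at -0.77, and AHR above 0 at 0.58, and the 2 genes not drawn were not called.

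Genes known as targets of the factors were counted next, in lists also written with earlier results of these data known. A gene can stand in more than one of these lists, and TTR, TAT, PCK1, G6PC1 and CYP7A1 are each in 3 of them. The counts are therefore not separate evidence. Of 21 tested target genes of HNF4A, 8 passed the edgeR test as lower and 0 as higher, beside 6.54% and 6.71% of all genes. At an unadjusted p under 0.05, 0 were higher, beside 14.3% of all genes. The median log2 change was -0.26. MTTP, which loads lipid onto apolipoprotein B, fell from 77.0, 74.8 and 68.3 CPM in vehicle to 51.3, 47.1 and 49.6 CPM in glycine (-0.57 ± 0.07, SE, edgeR adjusted p 0.000104). AGT, the angiotensin precursor, fell from 1274 ± 100.3 to 969 ± 32.8 CPM, and CYP27A1, a bile acid synthesis enzyme, from 229.5 ± 9.47 to 186 ± 3.61 CPM. In all 3 the glycine libraries were below the vehicle libraries. CYP8B1, which makes the cholic acid branch of bile acids, fell from 2.10 ± 0.406 to 1.05 ± 0.170 CPM and TTR, the thyroxine carrier transthyretin, from 129 ± 9.42 to 103 ± 5.25 CPM. Among the targets with the most reads, APOB was at 10752 ± 2996 CPM in vehicle and 10752 ± 1517 CPM in glycine. SERPINA1 was at 5666 ± 320.2 and 5293 ± 101 CPM, and the log2 changes of APOB and SERPINA1 were 0.00 and -0.10. Of TF, APOA1 and APOA2, which had the next most reads, APOA1 alone was called (edgeR adjusted p 0.0483). Their log2 changes were -0.27, -0.26 and 0.19 in that order. OTC, also among the 8 called lower, was at 0.453 CPM in vehicle and 0.212 CPM in glycine on average, and its call held under 4 of its 13 alternatives. Without glycine replicate 3, 5 of the tested HNF4A target genes were called lower in place of 8.

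Of 14 tested target genes of the FOXA factors, 3 passed the edgeR test as lower and 1 as higher, beside 6.54% and 6.71% of all genes. The median log2 change was -0.30. The gene called higher was IGFBP1, a secreted binder of insulin-like growth factors, at 104, 110.3 and 111 CPM in vehicle and 171, 171 and 187 CPM in glycine (0.70 ± 0.06, SE, edgeR adjusted p 1.12e-05). The genes called lower were PCK1 and G6PC1, enzymes of gluconeogenesis, and TTR. PCK1 was low throughout, at 2.17, 1.69 and 1.53 CPM in vehicle and 0.564, 0.684 and 0.640 CPM in glycine, a log2 change of -1.49 ± 0.21 (SE, edgeR adjusted p 0.000471). G6PC1 changed by -0.84 on the log2 scale, and its edgeR call was lost when any of 4 libraries was left out, with an adjusted p of up to 0.132 (without glycine replicate 2). Without vehicle replicate 2, 6 FOXA target genes were called lower, among them ALB and AFP.

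Of 19 tested target genes of the CEBP factors, 5 passed the edgeR test as higher and 4 as lower, beside 6.71% and 6.54% of all genes. The median log2 change was -0.11. The genes called higher were 4 plasma proteins of the acute phase and TRIB1, a pseudokinase that promotes loss of CEBPA protein. HP, which encodes haptoglobin, rose from 95.3, 86.6 and 99.2 CPM to 131, 137 and 137 CPM (0.53 ± 0.07, SE, edgeR adjusted p 0.000160). TRIB1 rose from 75.9 ± 2.04 to 107 ± 6.60 CPM and FGA, a fibrinogen chain, from 612 ± 22.7 to 779 ± 32.2 CPM. ORM1 and ORM2, near-identical copies that may share reads and are uncertain as separate genes, rose by 0.61 and 0.47 on the log2 scale. FGG, the fibrinogen chain encoded beside FGA, was at 474 ± 34.3 and 446 ± 9.14 CPM (-0.09, not called), and the acute phase genes CRP, SAA1 and SAA2 were at or near 0 counts in every library. The genes called lower were PCK1, G6PC1, SAA4 and HPX, and 2 of these 4 calls were left without vehicle replicate 1, without vehicle replicate 3 or without glycine replicate 1. The gene SAA2-SAA4 overlaps 65.5% of the exon length of SAA4, so the level of SAA4 is uncertain.

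Of 9 tested target genes of PROX1 and ONECUT1, 5 passed the edgeR test as lower, beside 6.54% of all genes. They were PCK1, CYP8B1, TTR, G6PC1 and NR5A2. As higher 0 were called, beside 6.71%, and 0 at an unadjusted p under 0.05, beside 14.3%. The median log2 change was -0.70, the value of NR5A2. In vehicle PCK1, CYP8B1, G6PC1 and NR5A2 were low, with means of 1.80, 2.10, 1.67 and 1.68 CPM in that order. This list holds 2 of the 8 factors themselves, HNF4A and FOXA2, neither of which was called. The count was 3 without vehicle replicate 1, without glycine replicate 1 or without glycine replicate 2. The enzyme CYP7A1, which starts bile acid synthesis and stands in 3 of the target lists, was at 0.43 to 0.628 CPM in vehicle and 0.219 to 0.355 CPM in glycine, and its log2 change of -0.77 was not called (edgeR adjusted p 0.121).

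The label of the cells was checked by markers. Counts of calls in these lists stand beside 6.71% of all genes called higher and 6.54% called lower by edgeR. ALB was at 9038, 5366 and 8660 CPM in vehicle and 4682, 5344 and 6405 CPM in glycine, a log2 change of -0.49 with an edgeR adjusted p of 0.0764. The low vehicle library was replicate 2, and without it ALB and AFP were called lower (edgeR adjusted p 0.00238 and 0.0228). AFP, the fetal albumin gene, was at 2072 ± 633 and 1649 ± 372 CPM and APOA1 at 1992 ± 154 and 1660 ± 51.1 CPM (SD, n = 3 each), so these liver products were abundant in all libraries. APOA1 passed the test narrowly (edgeR adjusted p 0.0483) and lost the call under 9 of 14 alternatives. Of 15 hepatocyte markers 2 were called lower and 1 higher, with 10 of the 15 log2 changes below 0 and a median of -0.16. The count called lower was 6 without vehicle replicate 2, 5 with no filter and 1 when any of the other 5 libraries was left out. Of 9 tested bile duct and progenitor markers edgeR called 3 higher and 1 lower (median 0.03 on the log2 scale), and their sum was 2217 to 2509 CPM in vehicle and 2358 to 2598 CPM in glycine. KRT19 was at 600.3 ± 44.4 and 854 ± 40.5 CPM, SOX4 at 69.1 ± 4.79 and 121 ± 11.97 CPM, and SOX9 at 269.8 ± 11.2 and 225 ± 10.9 CPM. The call of SOX9 as lower was lost without vehicle replicate 1, glycine replicate 2 or glycine replicate 3 (edgeR adjusted p 0.0602, 0.0855 and 0.0503), and without vehicle replicate 2 SPP1 was also called lower. Of 8 fibroblast markers 2 passed the filter, COL1A1 called higher and PDGFRB lower, their sum was 27.2 to 31.2 CPM in vehicle and 21.5 to 22.1 CPM in glycine, and DCN was at or near 0. Of 6 immune cell markers 3 passed the filter, with CD14 and CD68 called higher and a sum of 4.76 to 5.87 CPM in vehicle and 8.13 to 8.74 CPM in glycine. Other genes overlap 85.8% of the exon length of CD68, so its level is uncertain. CD3E was at 0 in all libraries and PTPRC at no more than 0.0860 CPM. Of 6 endothelial markers 4 passed the filter, with VWF called lower and a sum of 7.34 to 7.98 CPM in vehicle and 6.58 to 7.87 CPM in glycine, and KDR was at or near 0. The calls of CD68 and VWF were lost in most fits that left out a library. The part of these changes in the results on the factors was not tested.

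The genes whose libraries followed FOXA3 most closely were TMEM41A, ISYNA1, an enzyme of inositol synthesis, and AIFM1, a mitochondrial flavoprotein, with Pearson r of 0.998, 0.997 and 0.996 over 6 libraries among 9110 genes at 10 CPM or more. These r rest largely on the difference between the groups that the libraries share, and they are given as a description. TMEM41A fell from 85.7, 88.2 and 91.0 CPM in vehicle to 64.3, 62.6 and 58.8 CPM in glycine.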

How the data were processed

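The authors deposited 1 file of whole-number read counts per gene for each of 6 HepG2 libraries, not normalized. The submitters' processing notes name Trimmomatic 0.36, STAR 2.5.2b, featureCounts, Subread 1.5.2 and the build GRCh38. The strand setting and annotation were not given in the sources used here, and gene symbols came from the reference tables (56410 of 57500 genes). The labels gave group and replicate number. The study's methods define a biological replicate as an independent experiment on another day. The labels name no separate cultures, and p-values measure the spread between these libraries. No pair of libraries of a group agreed within sampling noise.

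Counts were filtered (filterByExpr, minimum count 10, minimum total 15), scaled by TMM and tested by the quasi-likelihood test of edgeR 4.0.16 (R 4.3.3) with group as the only term. P-values were Benjamini-Hochberg adjusted over all 15492 genes, with a threshold of 0.05. Intervals are the log2 change ± 1.96 SE. This multiplier takes no account of the few libraries, so the intervals are approximate and narrower than the test implies. An interval can therefore leave out 0 at an unadjusted edgeR p above 0.05, as that of TF does (-0.53 to -0.01, p 0.0597). Shares and ratios were compared by exact permutation of the libraries (scipy 1.17.1). The script was tested on simulated data. Alternatives were RLE, upper-quartile and total-count scaling, no filter, 1 CPM in 3 libraries, DESeq2 1.42.0, limma 3.58.1 with voom, a replicate block, each library left out, and CPM without length. The members and gene lists were chosen with earlier results of these data known. Genes named were all 8 factors, up to 5 called with the smallest p and up to 5 with the most reads per list, the 3 most like the factor with the smallest p, and ALB, APOA1 and AFP. Other genes named in the text, among them PPARA, NR0B2, MLXIPL, ESRRA, NR5A2, OTC, CYP7A1, FGG, CRP, SAA1, SAA2, DCN and KDR, were chosen after their values were seen. Intervals cover the spread between libraries as well as counting error, and detection limits cover counting error only. A further recognition word and 2 further factors are not reported here.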

Additional observations from a re-analysis of the deposited data

How the results depend on the processing

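The FOXA3 call held under all 14 alternatives, with a log2 change from -0.36 to -0.31, and no other factor passed the edgeR or other test under any of them. HNF4A, FOXA1 and FOXA2 kept their direction throughout. With scaling by total counts alone, CEBPA and CEBPB turned to 0.00611 and 0.00529 on the log2 scale. Leaving out 1 library at a time, the log2 change ranged from -0.0581 to 0.0393 for CEBPA, from -0.0935 to 0.0618 for CEBPB, from -0.259 to 0.0533 for ONECUT1 and from -0.0320 to 0.174 for PROX1, and the difference in the log2 ratio of CEBPA to CEBPB from -0.0378 to 0.0437. The genes called numbered 1040 higher and 1013 lower, and leaving out 1 library gave 587 to 926 higher and 655 to 1010 lower, with fewer samples in each fit. The median log2 change of all genes was between -0.0033 and 0.0176 over the scalings.

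For its cell-based assays the study reports that every experimental day held both control and treated samples, but the labels name no day. Libraries that share a number did not deviate together (correlations of -0.0577, -0.0269 and -0.00258), so the numbers were not taken to pair them. Libraries of unlike numbers had correlations from -0.199 to 0.214. The highest were vehicle replicate 2 with glycine replicate 1 (0.214), vehicle replicate 1 with glycine replicate 3 (0.214) and vehicle replicate 3 with glycine replicate 2 (0.180). Whether such libraries shared a run was not tested. A block by replicate number gave 866 genes higher and 918 lower, and FOXA3 at -0.33 with an edgeR adjusted p of 0.00883. It covers the pairing by number only, and a block by any other pairing was not tested. The interval of ONECUT1 reaches down to -0.38 on the log2 scale, beside a spread of 21.8% between vehicle libraries and 298 to 595 reads a library. The exon overlaps of CEBPA and CEBPB limit the levels of these genes.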
